A study of Mus musculus with 7 samples.

Results

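The extracellular matrix genes described here are 32 genes for collagens, laminins, matrix glycoproteins, matrix-modifying enzymes and inhibitors, of 20385 genes in the deposited table. They were listed by name, and each is represented by its RefSeq transcript row of highest mean over all libraries. Of these, 14 encode basement membrane proteins, 15 encode fibrillar or interstitial matrix proteins, and 3 encode protease inhibitors or a collagen chaperone. The cells were of the E14 line of mouse embryonic stem cells, kept in 2i, where kinase inhibitors hold them in the naive state. All libraries came from cells that carry the Brn2-RFP GAVPO cassette, in which the light-switched activator GAVPO drives the neural POU factor Brn2. LED light of 300 µW was given for 0, 2, 4, 6, 14, 24 or 48 h, and each time is 1 of 7 libraries. No library without the cassette was analysed here, no time has a replicate, and time and library cannot be told apart.

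The basement membrane is a thin sheet under epithelia that the early embryo lays down around the epiblast. Laminins, each a trimer of an alpha, a beta and a gamma chain, polymerise into its first network. Nidogens and the proteoglycan perlecan (Hspg2) tie that network to the type IV collagen network. Fibrillar collagens of types I, III and V form the fibres of connective tissue instead, and fibronectin, fibulins and microfibril-associated proteins are laid down around them. Lysyl oxidase (Lox) crosslinks collagen and elastin, and Serpinh1 is the chaperone that folds procollagen.

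The total of reads implied by the deposited values was 14.9, 7.63, 7.05, 13.7, 9.12, 9.98 and 16.2 M in order of time. In the values, 1 read was almost never seen, so a value listed at 0 can stand for 0 or 1 read. Levels are given below as reads per kilobase of exon, scaled to a library of 1 M reads, which allows genes to be compared. Of the embryonic stem cell markers Pou5f1, Sox2, Nanog, Zfp42 and Esrrb, 0 of 5 passed either trend test given below. Of all genes, 0.296% rose and 0.0623% fell in the limma test. In the limma-voom fit 2.25% rose and 0.795% fell, so 0 of 5 is near these shares. The summed deposited value of the 5, led by Pou5f1, ranged from 322 to 436, and Nanog ran from 81.6 at 2 h to 33.4 at 14 h. Pou3f2, the gene of Brn2, had deposited values of 77.0, 119 and 7.19 at 0, 14 and 48 h, so time is a label of light and not of the measured Brn2 transcript.

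Among the matrix genes, 4 were far higher in the late libraries than in the early ones, and 2 of these are basement membrane genes. Col1a2, a chain of type I collagen, Lamb3 and Lamb1, both laminin beta chains, and Mfap4, a microfibril-associated glycoprotein, were low in every library up to 14 h and highest at 48 h. Against 0 h, the 48 h library held 47.9-fold more Col1a2, 84.5-fold more Lamb3, 27.6-fold more Mfap4 and 7.65-fold more Lamb1. The main test, a limma trend test on log2 of the deposited value plus 1 against log2 of hours plus 1, covered 6424 genes with a mean value of at least 1. It reached 10 of the 32 matrix genes and called 0 of them at a Benjamini-Hochberg adjusted p under 0.05, with 3 (Lamb2, Mfap4 and Nid1) at an unadjusted p under 0.05, as were 21.6% of all genes tested. Over all genes tested, 0.296% rose and 0.0623% fell. The deposited values are scaled per kilobase of the whole gene span, and on that scale Col1a2, Lamb3 and Lamb1 lay under the minimum of the test. A limma-voom fit on approximate reads recovered from the values covered 24 of the 32, and 4 rose and 0 fell. Its minimum of 10 reads in 3 libraries favours genes that are high in some library, so this count is a description. Of all 13453 genes in that fit 2.25% rose and 0.795% fell, and after removal of a trend with GC content from each library 1.79% rose and 0.647% fell. In these bulk libraries, fewer cells of a type and less RNA per cell cannot be told apart.

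The promoter sequences of 3 of these 4 genes are shown because the genes were high in the same late libraries; for Mfap4 no promoter is shown. Each is the 250 bases before a start of the gene in RefSeq on GRCm38.p6, and capitals mark matches on either strand to the E-box CAGNTG, the CCAAT box CCAAT, the GC box GGGCGG, the TATA box TATAAA and the octamer ATGCAAAT that POU factors are known to bind. The first window is Col1a2, chr6:4505368-4505617 on the + strand, the second is Lamb1, chr12:31265043-31265292 on the + strand, and the third is Lamb3, chr1:193301744-193301993 on the + strand, the first of its pair of listed starts.
Col1a2: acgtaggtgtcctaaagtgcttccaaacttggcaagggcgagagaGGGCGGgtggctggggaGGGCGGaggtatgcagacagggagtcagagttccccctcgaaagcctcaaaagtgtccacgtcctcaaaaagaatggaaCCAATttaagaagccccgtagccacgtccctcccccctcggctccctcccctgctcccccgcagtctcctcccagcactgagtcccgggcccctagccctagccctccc
Lamb1: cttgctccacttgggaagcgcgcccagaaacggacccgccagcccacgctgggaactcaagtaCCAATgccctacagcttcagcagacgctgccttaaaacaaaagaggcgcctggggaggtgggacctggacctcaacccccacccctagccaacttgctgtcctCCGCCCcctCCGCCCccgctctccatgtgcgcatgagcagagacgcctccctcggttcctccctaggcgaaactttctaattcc
Lamb3: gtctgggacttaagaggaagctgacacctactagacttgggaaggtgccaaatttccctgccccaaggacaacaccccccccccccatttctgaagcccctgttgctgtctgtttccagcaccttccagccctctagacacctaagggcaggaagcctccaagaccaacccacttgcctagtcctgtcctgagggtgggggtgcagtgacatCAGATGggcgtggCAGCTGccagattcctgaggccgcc
Col1a2 and Lamb1 each hold a CCAAT box and a pair of GC boxes, whereas the Lamb3 window holds a pair of E-boxes and neither of the others. Of all 32851 promoter windows in the table, 33.9% hold CCAAT, 32.7% hold GGGCGG and 44.8% hold CAGNTG. No octamer or TATA box match lies in these 3 windows. The 23 matrix genes found in the promoter table have 29 windows. Of these windows, 1 (Col3a1) holds the octamer, which 1.60% of all windows hold. The GC box is in 17, the E-box in 12, the CCAAT box in 10 and the TATA box, present in 12.4% of all windows, in 2.

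Col1a2 ranked 24 of 32 by level at 0 h and 11 of 32 at 48 h. Its level was 0.303, 0.0741, 0.0801, 0.151, 0.599, 5.89 and 14.5 at 0, 2, 4, 6, 14, 24 and 48 h, from 24, 3, 3, 11, 29, 315 and 1256 reads. The 24 and 48 h libraries stood well above the other 5. Fitted over the time course, Col1a2 rose by 9.30 ± 1.42 (SE) on the log2 scale (limma-voom, adjusted p = 0.0083), and by 8.79 after removal of the GC trend (adjusted p = 0.020). The fitted line runs past the observed log2 ratio of 48 h to 0 h, 5.58, and the 2 and 4 h libraries lie below the 0 h library. Without the 48 h library the fitted change was 6.85 and was not called (adjusted p = 0.332); the 24 h library alone held 19.4-fold more than the 0 h library.

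Col1a1, which encodes the other chain of the type I collagen trimer, did not share this course. Its level was 0.171, 0.0478, 0.207 and 0.160 at 0, 2, 4 and 6 h, was listed at 0 at 14 h, and was 0.0548 and 0.0676 at 24 and 48 h, from at most 15 reads in any library. It had too few reads for the trend test. The level of Col1a2 was 1.77 times that of Col1a1 at 0 h and 215 times at 48 h, the latter from 6 reads of Col1a1. The 48 h to 0 h ratio of Col1a1 was 0.395, with a 95% counting interval of 0.117 to 1.01, so a difference between those libraries was not resolved for it by counting alone. Of the genes next to Col1a2 on its chromosome, those with reads enough to test did not pass: Casd1 had a fitted change of 0.48 (adjusted p = 0.612 by limma-voom) and Bet1 of -0.74 (adjusted p = 0.433).

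Lamb3, the beta chain of the laminin of epidermal hemidesmosomes, went from a handful of reads to a level close to that of Lamb2. Its level was 0.116, 0.0971, 0.105, 0.144, 0.352, 2.92 and 9.80 in order of time, from 7, 3, 3, 8, 13, 118 and 642 reads. From 2 h on, each later level was higher than the one before, but the 2 and 4 h libraries held 3 reads each. The steps up to 14 h rest on 13 reads or fewer per library. It rose by 8.65 ± 1.2 (SE) on the log2 scale (limma-voom, adjusted p = 0.0059), and the adjusted p was 0.016 after removal of the GC trend. The gene met the minimum of 10 reads in the 14, 24 and 48 h libraries alone, the ones in which it is high, so it could be tested only with all of these present. With 7 reads at 0 h, the 84.5-fold ratio has a 95% counting interval of 40.8 to 211.

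Lama3, the alpha chain that Lamb3 is known to assemble with, was not higher at 48 h than at 0 h. Lama3 had a level of 4.15, 0.635, 1.29, 2.44, 1.15, 0.829 and 0.764 at 0, 2, 4, 6, 14, 24 and 48 h, from 653, 51, 96, 353, 110, 87 and 130 reads. The 0 and 6 h libraries were the high ones. Its fitted log2 change of -2.03 ± 0.72 (SE) did not pass the limma-voom test (adjusted p = 0.127); without the 2 h library it passed as a fall (adjusted p = 0.028), and without the 0 h library the change was -0.70 (adjusted p = 0.731). At 48 h, the value of Lama3 was 0.184 of that at 0 h, with a 95% counting interval of 0.151 to 0.222. The level of Lama3 was thus above that of Lamb3 at 0 h and below it at 48 h.

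Lamb3 lies beside G0s2, a small gene known as an inhibitor of fat breakdown, and some of its annotated transcripts run across G0s2. Of 9 annotated Lamb3 transcripts on GRCm38, 2 span G0s2, which lies on the opposite strand. The transcript whose row is used here shares 0 bases with G0s2 and starts 28.8 kb from it. G0s2 had about 9, 18, 6, 9, 16, 52 and 491 reads in order of time. It too rose in the read fit (log2 change 6.03 ± 1.18 SE, limma-voom, adjusted p = 0.025), though not in the main test (adjusted p = 0.092). Plxna2, the next gene on the other side with reads enough to test, rose as well (2.40, adjusted p = 0.036 by limma-voom). Lamb3 had 3 reads and G0s2 18 at 2 h, and both had their most reads at 48 h. Whether either gene drew reads from the other was not tested. The sources used here do not say whether reads were assigned by strand.

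Mfap4 ranked 17 of 32 by level at 0 h and 4 of 32 at 48 h. Its level was 1.5, 0.406, 0.527, 0.994, 0.815, 5.59 and 41.2 in order of time, from 38, 5, 6, 23, 13, 96 and 1147 reads. The 48 h library stood alone, several-fold above 24 h. The main test gave a log2 change of 3.13 ± 1.0 (SE) that did not pass (limma, adjusted p = 0.136), and the read fit gave 6.80 ± 1.51 (SE) that did (limma-voom, adjusted p = 0.037). After removal of the GC trend the change was 6.48 (adjusted p = 0.058), and without the 2, 4 or 6 h library it was 6.34 to 6.60 (adjusted p of 0.051 to 0.079), each of similar size but not called. Without the 48 h library it was 2.18 (adjusted p = 0.688). Of its exon bases, 89 are shared with Mapk7 on the opposite strand. Mapk7 had about 804 reads at 0 h and 1950 at 48 h and a fitted change of 0.69 that did not pass (adjusted p = 0.346 by limma-voom). Rnf112, on the other side of Mfap4, rose from 6 to 317 reads (log2 change 7.66, adjusted p = 0.017 by limma-voom). Rnf112 met the minimum of reads only from 14 h on, in the libraries in which it is high. Its call is therefore a description.

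**Figure D1:**
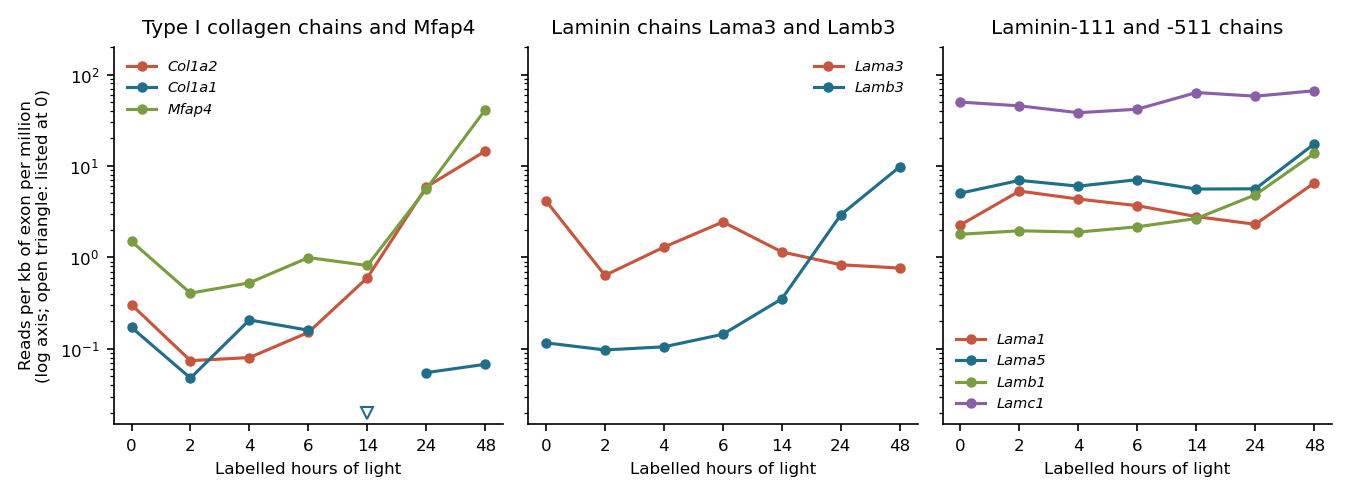
Level by labelled hours of light on a log axis, 1 library per point, for type I collagen chains with Mfap4 (left), Lama3 and Lamb3 (middle) and the chains of the main embryonic laminins (right); the open triangle is a value listed at 0. Col1a2, Mfap4, Lamb3 and Lamb1 climb at 24 and 48 h, whereas Col1a1 and Lama3 end below their 0 h level. For Col1a1, with 15 reads at 0 h and 6 at 48 h, that difference was not resolved by counting alone.

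Laminin chains of the embryonic basement membrane were present in every library, with Lamc1, the gamma chain shared by most laminins, far above its partners. Lamc1 had a level of 49.9 at 0 h, a low of 38.2 at 4 h and a high of 66.4 at 48 h, and its fitted log2 change of 0.45 ± 0.26 (SE) did not pass (limma, adjusted p = 0.320). Lamb1, its usual beta partner in the embryo, had a level of 1.79, 1.95, 1.89, 2.16, 2.66, 4.83 and 13.7 at 0, 2, 4, 6, 14, 24 and 48 h, from 154, 86, 77, 171, 140, 279 and 1279 reads. Its 5 libraries up to 14 h lay close together and the last was the highest by far. Lamb1 rose in the read fit by 3.06 ± 0.62 (SE) on the log2 scale (limma-voom, adjusted p = 0.028, or 0.043 after removal of the GC trend). Without the 4 h library the change was of similar size, 2.98, but was not called (adjusted p = 0.057), and without the 48 h library it was 1.57 (adjusted p = 0.507). The level of Lamb1 was 0.0358 of that of Lamc1 at 0 h and 0.206 of it at 48 h. Of the genes next to Lamb1 with reads enough to test, Sh3yl1 (log2 change -1.73, adjusted p = 0.114) and Dld (-1.205, adjusted p = 0.178) did not pass limma-voom.

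Lamb2, a beta chain of muscle, kidney and nerve basement membranes, was also highest at 48 h without passing either test. Its level was 3.43, 2.85, 2.90, 3.81, 6.34, 4.00 and 9.30 in order of time. The 14 and 48 h libraries were the high ones, so the course was not steady. The log2 change was 1.02 ± 0.33 (SE) in the main test (limma, adjusted p = 0.142) and 1.47 ± 0.46 in the read fit (limma-voom, adjusted p = 0.096), and the latter passed without the 24 h library (adjusted p = 0.042). The read-fit change was 0.79 after removal of the GC trend (adjusted p = 0.286) and 0.78 without the 48 h library (adjusted p = 0.716), and the main-test change was 0.42 after removal of the GC trend.

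Of the alpha chains, Lama1, which the embryo uses first, and Lama5, its widespread counterpart, were highest at 48 h. Lama5 had a level of 5.04, 6.95, 6.01, 7.08, 5.58, 5.62 and 17.4 in order of time, so 48 h stood apart from the other 6 libraries, which lay between 5.04 and 7.08. Its log2 change was 0.74 ± 0.35 (SE, limma, adjusted p = 0.250) and without the 48 h library it was 0.03. Lama1 had levels of 2.26, 5.31, 4.34, 3.67, 2.79, 2.30 and 6.52 in order of time, and its fitted change of 0.62 ± 0.55 (SE) did not pass (limma-voom, adjusted p = 0.508). The level of Lama5 was 2.23 times that of Lama1 at 0 h and 2.67 times at 48 h.

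The nidogens, the linkers between laminin and type IV collagen, were among the most abundant matrix transcripts and differed from each other in their course. Nid1 had a level of 70.8, 41.9, 41.8, 41.7, 28.5, 35.4 and 40.8 in order of time. The 0 h library was the highest, and every later library lay below it. The log2 change of -0.67 ± 0.28 (SE) did not pass (limma, adjusted p = 0.204), and it was -0.22 with 0 h left out and -1.03 with 48 h left out. Nid2 had a level of 79.3, 106, 94.3, 102, 87.1, 82.9 and 133 at 0, 2, 4, 6, 14, 24 and 48 h, with a change of 0.32 ± 0.28 (SE) that did not pass (limma, adjusted p = 0.516). Here 0 h was the lowest library and 48 h the highest. The level of Nid2 was 1.12 times that of Nid1 at 0 h, 2.26 to 3.05 times in the next 5 libraries and 3.26 times at 48 h. Nid2 shares 437 exon bases with Rtraf on the opposite strand, which had fewer reads than Nid2 in each of the 7 libraries (about 3897 against 5761 at 0 h and 2713 against 10478 at 48 h).

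Type IV collagen, perlecan and the collagen of endostatin passed no trend test. Col4a1 and Col4a2, the paired chains of the ubiquitous type IV network, had levels of 1.13 to 3.28 and 0.366 to 2.07, both lowest at 2 h and highest at 48 h. Their fitted changes, 0.69 (adjusted p = 0.447) and 1.01 (adjusted p = 0.426), did not pass limma-voom, and 22 of their exon bases overlap on opposite strands. Hspg2 was lowest at 24 h (level 3.39) and highest at 2 h (9.35), and Col18a1, whose product is the source of endostatin, was lowest at 24 h (2.13) and highest at 2 h (5.78). Neither passed limma-voom (adjusted p = 0.634 and 0.509). Col4a5, a chain of the kidney and lens network, was listed at 0 in 2 libraries and had at most 9 reads in any.

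**Figure D2:**
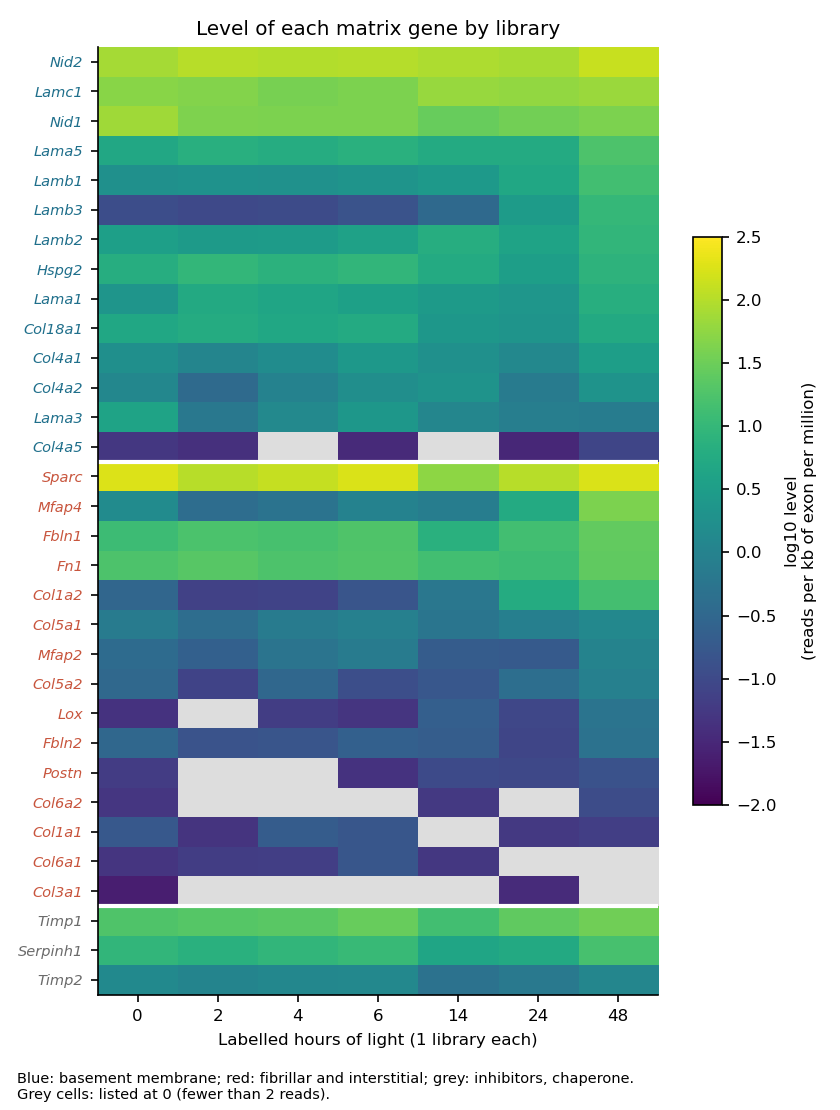
Log10 level of each of the 32 genes in each library, with basement membrane genes at the top, fibrillar and interstitial genes in the middle and inhibitors and the chaperone at the bottom, each sorted by level at 48 h; light grey cells are values listed at 0. Sparc, Nid2, Lamc1 and Nid1 are bright throughout, and Col1a2, Lamb3 and Mfap4 go from dark to bright over the last 2 libraries.

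Among interstitial genes, Sparc, a collagen-binding glycoprotein also found in basement membranes, had the highest level of all 32 at both 0 and 48 h. Its level was 180, 105, 125, 175, 54.6, 106 and 172 in order of time. The 14 h library was the low one, and 0, 6 and 48 h lay together. Its log2 change of -0.37 ± 0.54 (SE) did not pass (limma, adjusted p = 0.711). Sparc alone made up 84.4% of the summed level of the 15 interstitial genes at 0 h and 60.7% at 48 h, when Mfap4 came second with 14.5%.

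Fibronectin (Fn1), the main cell-adhesive glycoprotein of interstitial matrix, had levels from 12.0 at 24 h to 25.1 at 48 h. Its log2 change of -0.01 ± 0.29 (SE) did not pass (limma, adjusted p = 0.992), and its sign turned under other settings. Fbln1, a fibulin of elastic fibres and basement membranes, ran from 7.29 at 14 h to 26.2 at 48 h, and the 2.14-fold ratio of 48 h to 0 h went with a trend that did not pass (0.46 ± 0.54 SE, limma-voom, adjusted p = 0.623). Fbln2 stayed under a level of 0.50. Fn1 and Fbln2 were lowest at 24 h and Fbln1 at 14 h.

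The other fibrillar collagens were scarce. Col5a1 and Col5a2, chains of the type V collagen that nucleates fibres, had levels of 0.406 to 1.24 and 0.0793 to 0.916, lowest at 2 h and highest at 48 h. Neither passed limma-voom (adjusted p = 0.364 and 0.244). Col3a1 had 2 reads at 0 h and 2 at 24 h and was listed at 0 in 5 libraries. Col6a1 and Col6a2, chains of the beaded type VI microfibrils, had at most 9 and 7 reads, and Postn, periostin, at most 7. Lox had 3 reads at 0 h and 41 at 48 h, a ratio of 11.7 with a 95% counting interval of 4.02 to 63.6, and Mfap2 had 6 and 18 reads; neither had reads enough for the trend test.

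The 2 tissue inhibitors of metalloproteinases and the collagen chaperone did not pass any trend test. Timp1 ran from a level of 13.9 at 14 h to 33.4 at 48 h (log2 change 0.47 ± 0.34 SE, limma, adjusted p = 0.428). Serpinh1 ran from 4.46 at 14 h to 15.6 at 48 h (0.12 ± 0.43 SE, limma, adjusted p = 0.890). Timp2 ran from 0.504 at 14 h to 1.38 at 0 h, and its fitted change of -0.74 did not pass (limma-voom, adjusted p = 0.457). All 3 were lowest at 14 h, as were Sparc, Nid1 and Fbln1. At 14 h, 6 of 24 matrix genes with a ratio were at least 2-fold lower than at 0 h, against 9.57% of all genes, and 1 (Lamb3) was at least 2-fold higher, against 7.2%.

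**Figure D3:**
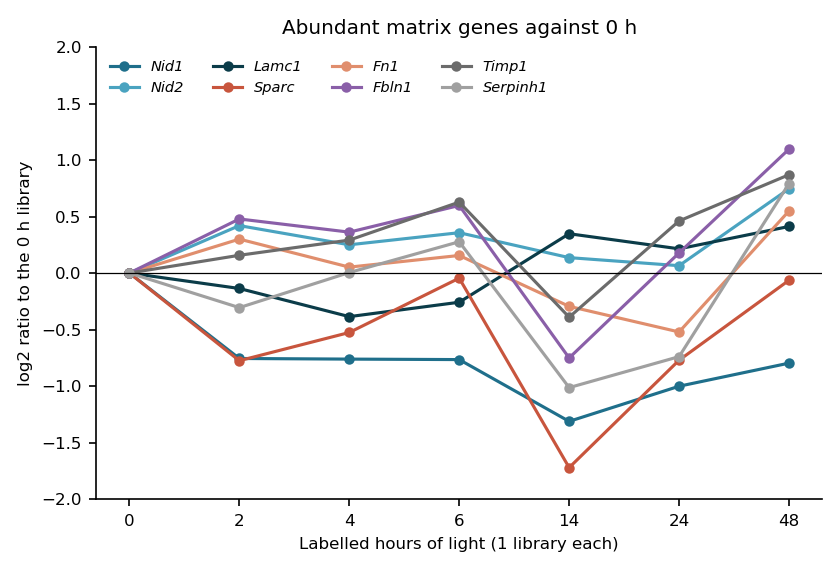
Log2 ratio of each library to the 0 h library for 8 abundant matrix genes, 1 library per point. Sparc reaches its lowest point at 14 h, Nid1 lies below 0 in every later library, and Serpinh1 and Fbln1 dip at 14 h before ending above 0 at 48 h.

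The 48 h library was set against the 0 h library gene by gene, without a test since each is 1 library, for genes with at least 20 reads in the pair together. Of 27 matrix genes with a ratio, 11 were at least 2-fold higher and 2 (Col1a1 and Lama3) at least 2-fold lower, against 17.3% and 16.6% of all 14020 genes. The ratio of Col1a1 rests on 15 and 6 reads, and its counting interval includes no difference. The 11 were Lama1, Lama5, Lamb1, Lamb2 and Lamb3 of the basement membrane and Col1a2, Col5a2, Mfap2, Mfap4, Fbln1 and Lox of the interstitial genes. The median log2 ratio was 0.79 over the matrix genes and -0.04 over all genes. Of the 27, 20 had their highest value at 48 h, as did 25.6% of all genes. At 24 h the picture was narrower: 4 genes (Col1a2, Lamb1, Lamb3 and Mfap4) were at least 2-fold higher than at 0 h, against 6.5% of all genes, and 5 were at least 2-fold lower, against 11.2%. At 2 h, 6 of 23 were at least 2-fold lower, against 11.4%, and 1 was at least 2-fold higher, against 4.4%. At 4 h, 0 of 24 were at least 2-fold higher (4.66% of all genes) and 4 at least 2-fold lower (3.78%), and at 6 h, 0 of 24 were higher (6.79%) and 2 lower (4.77%).

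GC content moved with the ratio of these 2 libraries. The tenth of genes with the lowest GC content had a median log2 ratio of -1.05 and the tenth with the highest had 0.88. The matrix genes with a ratio had a median GC content of 54.7%, against 50.7% for all genes. With the trend in GC content removed from each library, their median was 0.18 in place of 0.79 and that of all genes stood at -0.11. Then 7 matrix genes were at least 2-fold higher and 2 lower, against 12.2% and 11.4% of all genes. Lama5, Lamb2, Mfap2 and Fbln1 dropped under 2-fold in this setting, with log2 ratios of 0.84, 0.57, 0.54 and 0.60, whereas Lamb3 (5.66), Col1a2 (4.99), Mfap4 (4.37) and Lamb1 (2.66) stayed above it.

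Basement membrane and interstitial genes were compared by counts and medians, without a test. Of 13 basement membrane genes with a ratio, 5 were at least 2-fold higher at 48 h and 1 lower, with a median log2 ratio of 0.79. Of 11 interstitial genes with a ratio, 6 were higher and 1 lower, and the median was 1.10. Over all genes, 17.3% were at least 2-fold higher and 16.6% lower, with a median of -0.04. After removal of the GC trend the medians were 0.10 for the basement membrane and 0.54 for the interstitial genes. In the read fit 2 genes of each class rose, against 2.25% of all genes, or 2 basement membrane genes and 1 interstitial gene after removal of the GC trend, against 1.79%. The log2 ratios were above 0 in 11 of 13 basement membrane and 9 of 11 interstitial genes, or in 8 and 7 after removal of the GC trend. No share of all genes above 0 is given, so these counts are descriptions. The median over all genes was -0.11 after removal of the GC trend. The classes differed plainly in level: the median basement membrane gene stood at 3.79 at 0 h and 8.73 at 48 h, the median interstitial gene at 0.320 and 0.916. The summed level of the basement membrane genes lay between 204 and 317 over the 7 libraries, with Nid2 the leading gene in each. The summed level of the interstitial genes ranged more widely, from 78.9 at 14 h to 284 at 48 h, and Sparc led it in each library.

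**Figure D4:**
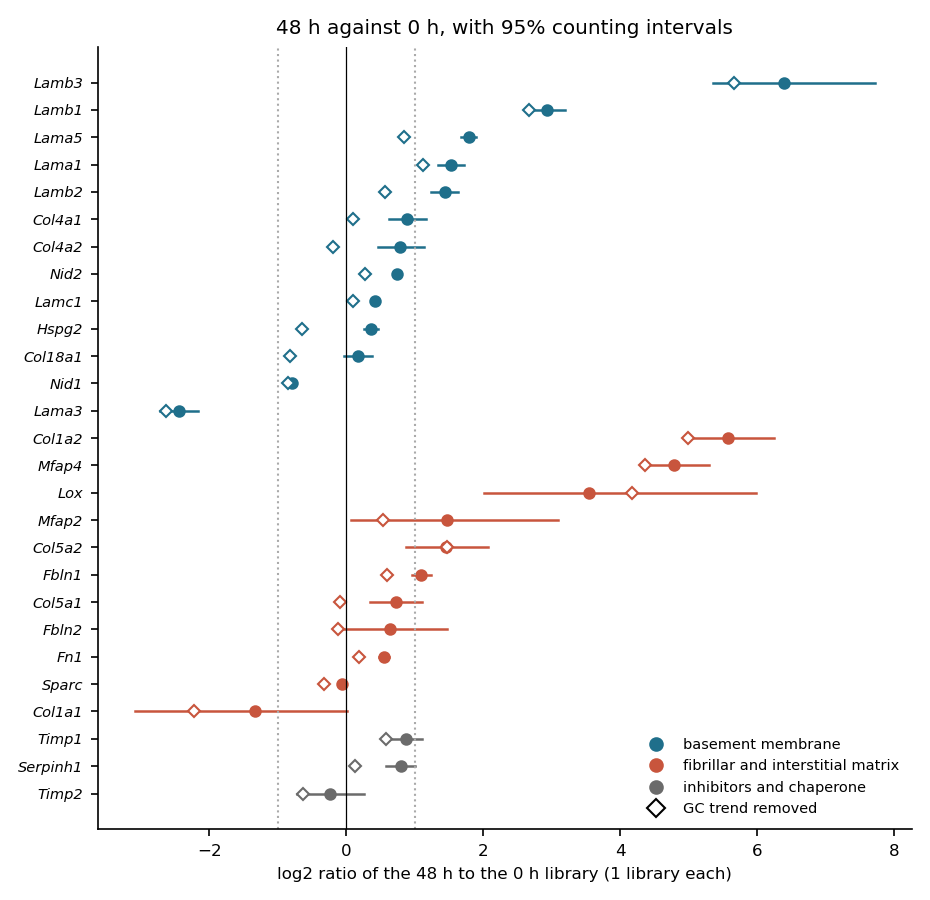
Log2 ratio of the 48 h to the 0 h library for the 27 matrix genes with at least 20 reads in the pair, coloured by class, with 95% counting intervals (horizontal bars, counting error alone) and the ratio after removal of the GC trend (open diamonds); dotted lines mark 2-fold. Lamb3, Col1a2, Mfap4, Lox and Lamb1 lie far to the right and Lama3 to the left, while most open diamonds sit left of the filled points.

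Other genes of the pathway were taken from lists by function. Over all genes in the read fit 2.25% rose and 0.795% fell, or 1.79% and 0.647% with the GC trend removed. Of 11 tested genes among the other basement membrane genes, 3 rose and 0 fell: Egflam, a retinal and synaptic matrix protein, rose by 8.54 on the log2 scale (limma-voom, adjusted p = 0.0061), Pxdn, the peroxidase that crosslinks type IV collagen, by 5.58 (0.0059) and Fras1, of embryonic epithelial basement membranes, by 5.08 (0.018). Of 15 tested other interstitial genes, 1 rose (Thbs2, a thrombospondin, 3.16, adjusted p = 0.032) and 0 fell. No gene passed among 18 tested matrix receptors, 22 genes of collagen processing and 14 proteases and inhibitors; with the GC trend removed the integrin Itga3 passed as a fall (adjusted p = 0.033). Of 12 TGF-beta ligands and targets, 1 rose, the ligand Tgfb1 (2.16, adjusted p = 0.046), and it did not pass with the GC trend removed (adjusted p = 0.210). The median fitted log2 change was 1.93 in the other basement membrane genes, 0.85 in the other interstitial genes, -0.08 in the receptors, 0.08 in collagen processing, 0.11 in the proteases and 0.34 in the TGF-beta list, against -0.05 over all genes.

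Markers of other cells that make matrix were looked up in the same fit, where 2.25% of all genes rose and 0.795% fell. Those that rose were high in the same late libraries as the matrix genes. Of 8 tested markers of primitive and parietal endoderm, which secrete basement membrane, 1 rose (Foxa2, log2 change 6.44, adjusted p = 0.0059 by limma-voom), a factor that neural floor plate also expresses. Foxa2 met the minimum of 10 reads in the 14, 24 and 48 h libraries alone, the ones in which it is high, so this call is a description. The level of Foxa2 was 0.221 at 0 h and 8.88 at 48 h. The summed deposited value of the 13 listed ran from 1.19 at 0 h to 5.93 at 48 h, of which Foxa2 alone was 0.115 and 4.62. Gata4 had 54 reads at 0 h and 20 at 48 h, and Ttr was listed at 0 in every library but that of 48 h, where it had 3 reads. Of 6 tested fibroblast and feeder markers, 1 rose (Cd34, 5.61, adjusted p = 0.0027 by limma-voom), with a level of 0.131 at 0 h and 5.78 at 48 h. The summed deposited value of the 12 listed ran from 2.65 at 0 h to 9.09 at 14 h. Twist1, which did not pass, made up 1.74 and 8.085 of these sums, and Fap was listed at 0 in each library. Of 4 neuronal markers, 3 rose (Neurod1, Map2 and Insm1), and their summed value ran from 9.30 at 0 h to 117 at 48 h. In mesoderm (3 tested), endothelium (2 tested) and neural crest (2 tested) 0 markers passed, with summed values of 1.07 to 2.26, 0.0694 to 0.396 and 3.71 to 10.4. Foxd3 led the neural crest sum, with deposited values of 3.52 at 24 h, when that sum was lowest, and 9.76 at 48 h, when it was highest. The part of any of these cells in the matrix results was not tested.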

How the data were processed

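Per the labels' protocols, RNA was extracted with RNeasy columns before Lexogen SENSE library preparation; per the submitters' processing notes, reads were aligned to mm9 with Bowtie2. The authors deposited 1 value per RefSeq transcript and library with no unit in the header; the sources used here do not say how reads were counted. Deposited values times genomic span (GENCODE, GRCm38) and depth gave whole reads, within 0.1, for 79.6% to 81.2% of those between 2 and 20 reads (20% by chance), against 21.7% to 23.1% with exon length. Reads are therefore approximate, and a level is value times span over exon length.

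Trends were fitted with limma 3.58.1 (R 4.3.3) on log2(value + 1), over all genes of mean at least 1 (5 residual degrees of freedom); this scale understates changes of low genes. Limma-voom used approximate reads (at least 10 in at least 3 libraries, library size set to depth). Both were tested on simulated data. The GC trend was a spline with 5 degrees of freedom per library. Counting intervals are exact conditional binomial and cover counting error only. P-values measure spread around a line over 7 single libraries, not between cultures. Members, classes, lists and tests were chosen with earlier results of these data known. All members are named, with genes that share exon bases with them and the tested neighbours of the 4 called in the read fit. Of other lists, called genes and examples are named.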

Additional observations from a re-analysis of the deposited data

How the results depend on the processing

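In the main trend test, 0 of the matrix genes rose under another pseudocount, no filter, quantile normalization, another transcript row or removal of the GC trend, and 0 fell. With linear hours 1 rose (Mfap4), and with each library left out in turn between 0 and 1 rose (Mfap4 without 0 h). On approximate reads 4 rose (2.25% of all genes), or 3 with the GC trend removed (1.79%). With each library left out, 0 to 4 rose and 0 to 1 fell (Lama3 without 2 h). The cause of these differences was not tested. For the settings without a percentage here no share of all genes is given, so their counts are descriptions. Lamb3 could not be fitted without the 14, 24 or 48 h library.

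For the 48 h to 0 h ratio, 4 genes were at least 2-fold higher and 0 lower with 1 added to each value (4.25% and 2.51% of all genes), 7 were higher with the GC trend removed (12.2%), 4 higher and 5 lower with 24 h in place of 48 h (6.5% and 11.2%), and 1 lower with at least 100 reads (15.2%). Chosen after seeing the data, a 3-fold limit gave 6 higher and 1 lower. A counting interval wholly past 2-fold gave 1 lower (Lama3), and those of Col1a2, Lama1, Lama5, Lamb1, Lamb2, Lamb3, Mfap4 and Lox lay wholly above 2-fold. No share of all genes is given for these limits, so the counts are descriptions. The median log2 ratio of interstitial genes was 0.17 with 1 added, below the 0.33 of basement membrane genes, so the order of the classes turned round there; it was 0.21 at 24 h, and that of basement membrane genes 0.10 with the GC trend removed and 0.022 at 24 h.

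Fitted directions turned in genes that passed no test. In the main fit, Fn1 was at 0.0091 with pseudocount 5, 0.0044 with quantile normalization, 0.17 with linear hours and 0.014 with another row; Sparc was at 0.13 with linear hours; with the GC trend removed Nid2 was at -0.011 and Serpinh1 at -0.34. On reads with the GC trend removed, Fbln2 was at -0.41 and Serpinh1 at -0.33. With each library left out in turn, main-fit changes ran from -0.47 to 0.20 in Fn1, -1.15 to 0.17 in Sparc, -0.017 to 0.49 in Nid2 and -0.67 to 0.38 in Serpinh1; on reads they ran from -0.69 to 0.29 in Fn1 (0.092 without 2 h and 0.075 without 14 h), -1.27 to 0.20 in Sparc, -0.0063 to 0.56 in Nid2, -0.94 to 0.57 in Serpinh1, -0.094 to 1.25 in Col4a1, -0.15 to 1.04 in Lama1 (-0.081 without 0 h), -0.98 to 0.075 in Hspg2, -0.35 to 0.73 in Fbln1 and -0.041 to 0.90 in Fbln2. The 48 h to 0 h log2 ratio turned with the GC trend removed in Col4a2 (-0.19), Col5a1 (-0.09), Col18a1 (-0.82), Hspg2 (-0.64) and Fbln2 (-0.12).

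No paired analysis was possible because each time has 1 library. Depth limits Col1a1, Col3a1, Col4a5, Col6a1, Col6a2, Mfap2, Lox and Postn, which had too few reads for either trend test.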
